A study of Mus musculus with 2 samples.

Results

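Aiolos binding away from gene starts was described through 249 peaks that the authors' annotation placed in distal intergenic sequence, in the outer promoter or just past a gene end. They made up 17.7% of the 1404 peaks in the deposited list (95% exact Clopper-Pearson interval 15.8 to 19.8). The annotation alone chose them: 194 were distal intergenic, 29 lay in the promoter class from 1 to 2 kb, 17 in the class from 2 to 3 kb and 9 in a downstream class. Aiolos, encoded by Ikzf3, was mapped by CUT&RUN, in which an antibody brings micrococcal nuclease to a chromatin protein and the released DNA is sequenced. The cells were natural killer (NK) cells from mouse spleen, grown in medium with 50 ng/ml interleukin-15, with 500000 or more cells in each sample, and such cells without a primary antibody gave the second library. Strain, genotype, age and sex are details not given in the sources used here. Each group had 1 library, so replicate error is unknown and no test between conditions was possible. Accordingly, shares and medians are set side by side without p-values. Intervals of fold cover the counting error of tags only. Intervals of shares and medians treat peaks as independent draws, which neighbouring peaks are not, and cover no replicate error.

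Ikaros family proteins bind DNA through zinc fingers and recruit chromatin remodelling and histone deacetylase complexes. In lymphocytes, sites between genes often include enhancers, short stretches that act on promoters over a distance and often lie in clusters near genes of cell identity. No chromatin mark or expression was measured here, so "enhancer-like" below refers to the spacing of peaks alone.

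Sequence was at hand for the few intergenic peaks that reached into the window of 250 bases before a RefSeq gene start. There were 7 of them, and in all 7 the gene at that start, a long non-coding RNA gene or a predicted coding gene, was not the one the authors assigned. The 3 shown are the strongest of them and the only pair with a searched motif in the part under the peak and before the start. Each line is the part of the peak that lies before the start, 5′ to 3′ on the plus strand of GRCm38 (mm10). Capitals mark matches on either strand to GGGAA, the core of the Ikaros motif, to the longer TGGGAA, or to TGANTCA, the AP-1 motif.
Gm38882, chr6:117879383-117879541: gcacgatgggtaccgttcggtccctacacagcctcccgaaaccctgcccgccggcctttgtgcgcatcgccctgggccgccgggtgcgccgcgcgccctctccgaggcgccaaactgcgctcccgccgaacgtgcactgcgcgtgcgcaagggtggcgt
Gm51550, chr8:109750582-109750776: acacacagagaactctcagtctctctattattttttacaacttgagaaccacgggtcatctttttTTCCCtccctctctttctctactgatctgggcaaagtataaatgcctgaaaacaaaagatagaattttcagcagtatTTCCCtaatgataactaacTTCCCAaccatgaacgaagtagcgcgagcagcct
Gm16191, chr17:28925165-28925266: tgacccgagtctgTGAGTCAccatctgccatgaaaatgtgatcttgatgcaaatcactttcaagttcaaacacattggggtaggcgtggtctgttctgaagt

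The Gm38882 stretch, assigned by the authors to Zfp239 16.2 kb away, held neither motif under a peak of 10.1-fold enrichment (95% exact Poisson interval 5.83 to 16.5, from 14 tags). Its whole window was 69.7% G and C. The Gm51550 stretch, assigned to Atxn1l, held 3 matches to GGGAA, 1 of them the longer TGGGAA, under a peak of 5.90-fold (6 tags). The Gm16191 stretch held 1 match to TGANTCA under a peak of 5.06-fold (5 tags). Over the whole windows of 300 bases, 4 of 7 held GGGAA, 2 held TGGGAA and 3 held TGANTCA, where 62.7%, 25.6% and 7.81% of all 32851 windows in the table did. A match is a description of letters and not a mapped site, and sequence under the other peaks was not used here.

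The authors' distance from the peak edge to the start of the annotated transcript had a median of 12.9 kb, with quartiles at 4.54 and 32.5 kb. Because the annotation is itself based on distance, these values describe the classes and are no result. The peaks spread widely: 48 lay within 3 kb, 17 from 3 to 5 kb, 35 from 5 to 10 kb, 55 from 10 to 20 kb, 61 from 20 to 50 kb, 20 from 50 to 100 kb and 13 beyond. Distal intergenic peaks had a median distance of 19.3 kb. The shortest distance belonged to Mir22hg, the host transcript of a microRNA, whose peak lay 1003 bp upstream, and the longest to Megf9, with a peak 757 kb upstream of its start. At the limit of the rule upstream of a start, the nearest peaks inside belonged to Mir22hg (9.53-fold), Sart1 (1005 bp, 6.63-fold) and Fbxo11 (1020 bp, 5.05-fold). The nearest upstream promoter peaks outside belonged to Gm19510 (986 bp, 12.5-fold), Usp49 (883 bp, 5.06-fold) and Cog1 (839 bp, 5.03-fold).

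Of the peaks, 162 lay upstream and 87 downstream of the start. The annotation shapes this split and it is given as a description: all 46 outer-promoter peaks lay upstream by construction of their class. Peaks downstream of a start but inside the gene belong to the gene-body classes or to the promoter class within 1 kb. Among distal intergenic peaks 115 were upstream and 79 downstream. Over all classes, 36 were upstream and 19 downstream at 10 to 20 kb, 27 and 34 at 20 to 50 kb, 11 and 9 at 50 to 100 kb and 5 and 8 beyond. Median fold enrichment moved little over these steps of distance, from 5.90 to 6.44, with 6.05 within 3 kb and 5.90 beyond 100 kb.

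**Figure D1:**
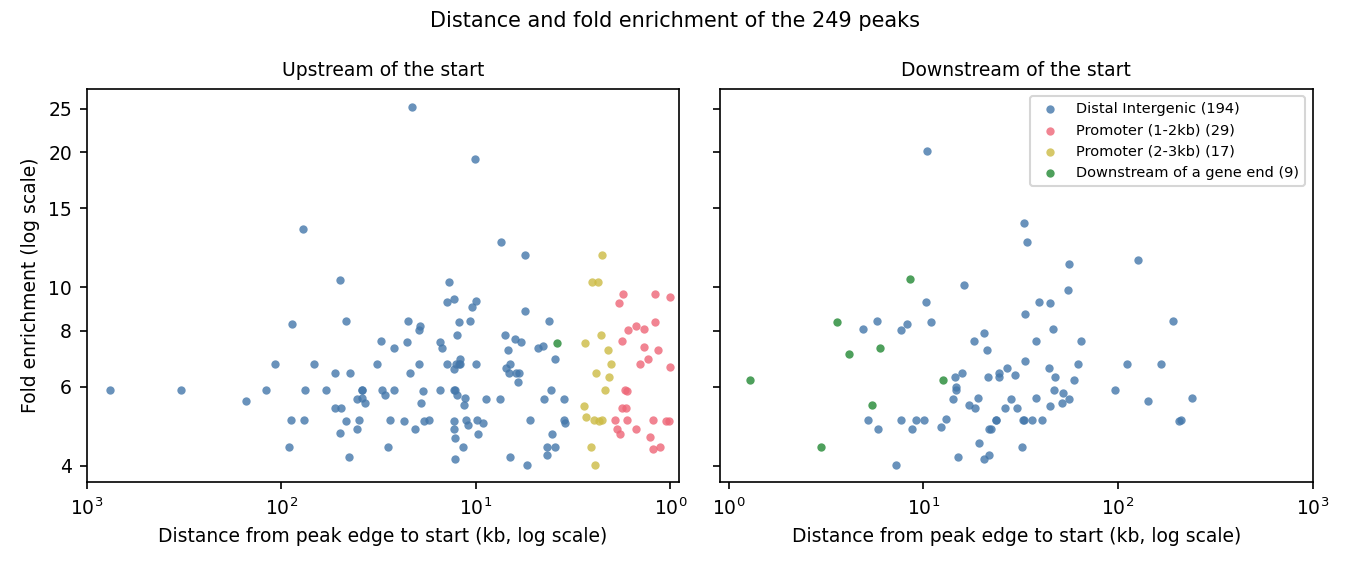
Each point is 1 of the 249 peaks, with the distance from its edge to the annotated start on the x axis (kb, log scale, upstream on the left panel and downstream on the right) and fold enrichment on the y axis (log scale), coloured by annotation class. Most points lie between 4-fold and 10-fold at every distance, and the 3 highest are at 25.3-fold, 20.1-fold and 19.3-fold, 10.1 to 21.2 kb from a start.

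In median fold these peaks stood close to gene-body peaks and below promoter peaks. Their median fold enrichment over the local background was 5.90 (95% order-statistic interval of the median 5.86 to 6.44), against 6.60 (6.44 to 6.75) for the 919 peaks within 1 kb of a start, 5.99 for the 236 gene-body peaks and 6.44 for the whole list. The difference from promoter peaks was -0.16 on the log2 scale. The summit held a median of 7 tags, from 4 to 31, where promoter peaks had 9, and 197 of the 249 peaks (79.1%) rested on 10 tags or fewer, where the share over the list was 71.2%. The background was at its floor at 75 of them (30.1%), against 26% over the list. Width did not set them apart, with a median of 262 bp against 265.5 bp over the list.

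Within the classes, medians were 5.90 for distal intergenic peaks, 5.90 for peaks 1 to 2 kb upstream, 6.31 for peaks 2 to 3 kb upstream and 7.10 for the 9 downstream peaks, all with overlapping intervals. A fold of 10 or more was reached by 17 peaks, 6.83% (95% exact interval 4.03 to 10.7), where 9.62% of the whole list and 11.9% of promoter peaks (109 of 919) did, and 3.81% of gene-body peaks (9 of 236, 1.76 to 7.12). Of these 17, 13 were distal intergenic, 3 lay 2 to 3 kb upstream and 1 was downstream.

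**Figure D2:**
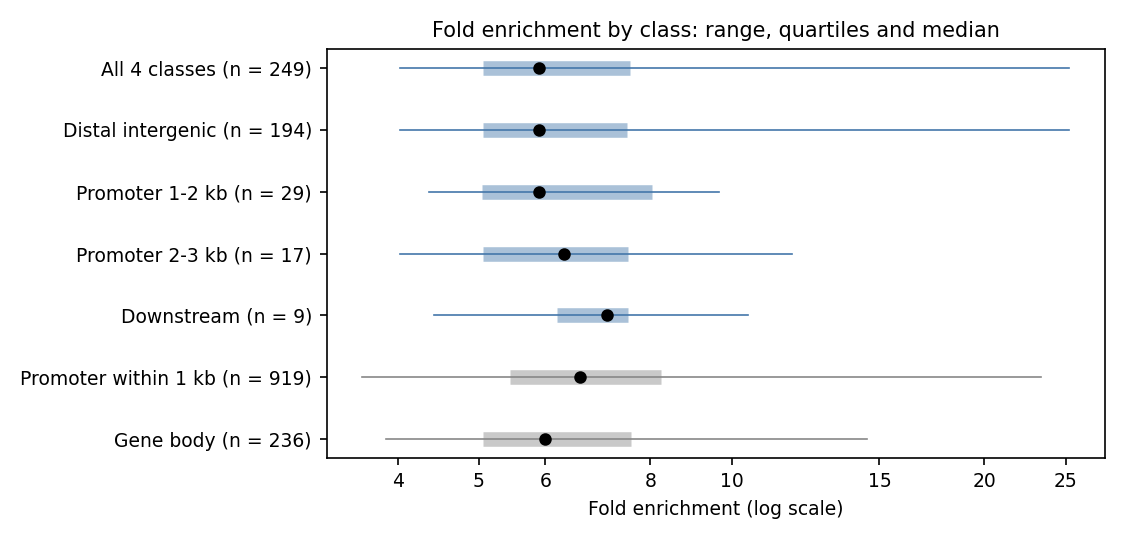
Fold enrichment (x axis, log scale) is drawn for each annotation class, with a thin line for the range, a thick bar for the quartiles and a dot for the median. The dots of the distal intergenic class and of gene-body peaks lie at 5.90 and 5.99, to the left of the dot at 6.60 for promoter peaks within 1 kb, while the range of the intergenic class reaches 25.3.

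Among the 50 highest folds of the list were 7 of the 194 distal intergenic peaks (3.61%), close to the 3.56% over all peaks. The strongest of all 1404 peaks was intergenic, on chromosome 7 at 106236535 to 106237148, with 25.3-fold enrichment (17.4 to 35.5, from 31 tags). It was assigned to Gm4070, 21.2 kb away, and the nearest coding gene of the table was Gvin1 at 21.2 kb, an interferon-inducible very large GTPase. Gvin genes form a family of close copies, and the treatment of reads with several matches is a step not given in the sources used here. Another, of 11.5-fold, lay on the same chromosome at 106551179 to 106551721 and was assigned to the olfactory receptor gene Olfr693, 127 kb away.

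The second, on chromosome 19 at 44248227 to 44248607, reached 20.1-fold (13.2 to 29.6, 24 tags). The authors assigned it to Scd3, a fatty acid desaturase gene, 10.4 kb downstream of its start, but it lay within the RefSeq gene Pkd2l1, which encodes a polycystin channel. The third belonged to Klrb1b and is described with its group. The fourth, on chromosome 6 at 41554526 to 41554966, had 13.9-fold enrichment (8.45 to 21.9, 17 tags) and was assigned to the trypsin gene Prss2, 32.7 kb away. It lay 6.35 kb from Trbc2 and 14.9 kb from Trbc1, the constant segments of the T cell receptor beta chain.

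Next came a peak of 13.5-fold assigned to 1700017B05Rik at 77.1 kb and peaks of 12.6-fold assigned to Adrb1, the beta-1 adrenergic receptor gene, at 34.1 kb and to Kif2c, a mitotic kinesin gene, at 7.45 kb. Sfpq, which encodes a splicing and paraspeckle protein, had a peak of 11.8-fold 5.59 kb upstream. Pkdcc, a secreted kinase gene, had 11.3-fold at 56.2 kb, and Lrrc8d, a subunit of volume-regulated anion channels, 10.4-fold at 50.1 kb. The interval of Lrrc8d (5.74 to 17.5) overlapped those of all stronger peaks. It met that of the strongest (17.4 to 35.5) only at its edge. The strongest peak rested on 31 tags and that of Lrrc8d on 12. Overlap of intervals does not show that folds are equal, and the order of these peaks was not tested.

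Among the outer-promoter peaks, Kcnn1, a potassium channel gene, led with 11.8-fold (6.68 to 19.6) 2.24 kb upstream. It was followed by Zfp36, whose protein promotes mRNA decay, and Syne3, which encodes a nuclear envelope protein, each at 10.3-fold (5.81 to 17.0) and 2.37 and 2.54 kb upstream. The Kcnn1 and Syne3 peaks overlapped the RefSeq genes of those names. The Zfp36 peak lay 3.39 kb from the RefSeq gene Zfp36 and 2.09 kb from Med29. In the class from 1 to 2 kb the highest were C230035I16Rik and Rnase4 at 9.66-fold each and Mir22hg at 9.53-fold. Of the peaks in a downstream class, the strongest were assigned to Slc23a3 (10.5-fold), Polr2e, an RNA polymerase subunit gene (8.38-fold), and Tubb4b, a tubulin gene (7.53-fold). The Tubb4b peak lay 3.85 kb upstream of the Tubb4b start and 0.133 kb from the neighbouring gene Slc34a3. The Slc23a3 peak overlapped the RefSeq gene Nhej1.

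Of the 249 peaks, 62 (24.9%) overlapped a gene of the RefSeq table, where 70.4% of the list did. They comprised 38 of the 194 distal intergenic peaks (19.6%, 95% exact interval 14.2 to 25.9), 15 of 29 and 8 of 17 in the outer-promoter classes and 1 of 9 downstream peaks. Among the 62, 32 overlapped a long non-coding RNA gene and 26 a coding gene. The peak assigned to Il2rb, 15 kb upstream of the annotated start, lay within the longer RefSeq gene Il2rb. For 171 peaks (68.7%) the assigned gene was also the nearest coding gene. The assigned gene had a promoter peak as well for 37 peaks (14.9%, 95% exact interval 10.7 to 19.9), and for 20 of the 236 gene-body peaks (8.47%, 5.25 to 12.8).

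Peaks near transfer RNA genes made up a larger share here than among promoter or gene-body peaks. Transfer RNA genes are short, are transcribed by RNA polymerase III and stand in clusters, some of them beside the histone genes. Of the 249 peaks, 21 lay within 1000 bp of a tRNA gene, 8.43% (95% exact interval 5.30 to 12.6), where 2.42% of the list did. The share was 1.31% of promoter peaks (12 of 919, interval 0.676 to 2.27) and 0.424% of gene-body peaks (1 of 236, interval 0.0107 to 2.34). This feature was looked at after the peaks had been seen, and a peak at a tRNA gene is called intergenic where the annotated transcripts lack that gene, so the annotation has a part in the count that was not tested.

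Of these 21 peaks, 16 were distal intergenic and 5 lay 1 to 2 kb upstream of another gene, with 0 in the other classes, and 7 overlapped a tRNA gene. Chromosome 13 held 7 of them, and without that chromosome the share was 6.01% (14 of 233) against 1.19% of the other peaks (13 of 1095). The strongest, assigned to C230035I16Rik on chromosome 13 at 23432780 to 23433372, overlapped the tRNA gene n-TYgta7 with 9.66-fold (5.22 to 16.6). Rnase4 had its peak of 9.66-fold 52 bp from n-TYgta10 on chromosome 14. Further peaks lay beside tRNA genes near Trim27 (9.03-fold and 5.68-fold), the histone genes H2bc13 (8.43-fold) and H4c8 (6.94-fold and 5.75-fold), and Rnase12 (2 peaks of 6.44-fold). None of the 21 reached 10-fold, and their median was 6.44 against 5.90 for the other 228.

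The background at these 21 peaks was also higher, with a median of 0.485 tags against 0.242 at the other 228. It was at its floor at 1 of the 21 and at 74 of the 228. Among the 75 peaks with the background at its floor, 1 lay near a tRNA gene (1.33%), against 1 of the 290 other peaks of the list at the floor (0.345%), so the difference could not be seen there. The part of the background in the count was not tested.

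**Figure D3:**
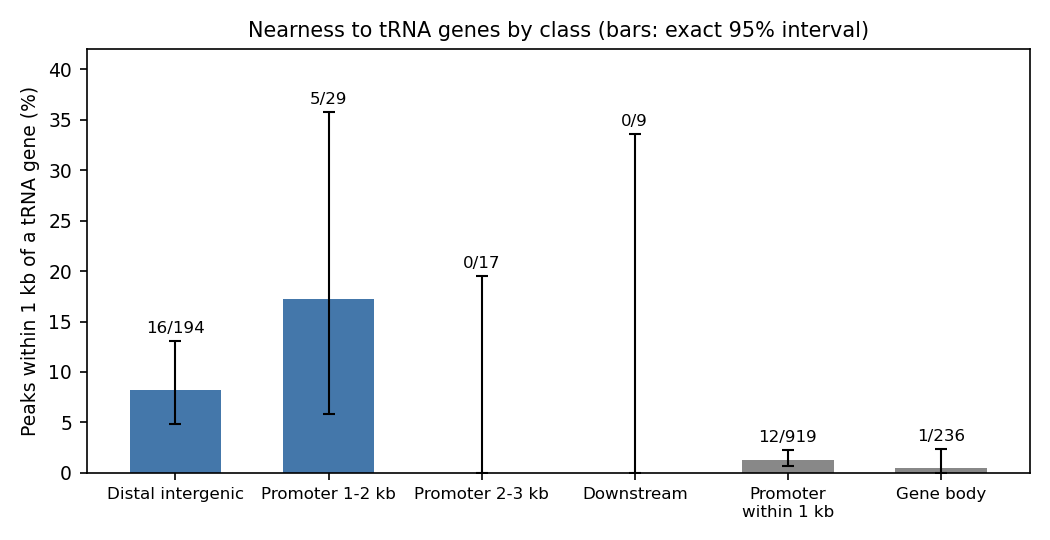
Bars give the share of peaks within 1000 bp of a tRNA gene (y axis, percent) for each annotation class, with exact 95% Clopper-Pearson intervals and the counts above them. The distal intergenic class (16 of 194) and the class from 1 to 2 kb (5 of 29) stand above promoter peaks within 1 kb (12 of 919) and gene-body peaks (1 of 236).

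Enhancer-like groups were few. Peaks were joined when the gap between their edges was at most 10000 bp, which gave 16 groups with 35 of the 249 peaks (14.1%): 13 pairs and 3 groups of 3. The remaining 214 peaks stood alone, and the median distance from a peak to the nearest other peak of any class was 149 kb. A peak of any class lay within 10 kb of 55 peaks, and that neighbour was itself one of the 249 for 33, a promoter peak for 18 and a gene-body peak for 4. In 13 of the 16 groups all peaks were assigned to 1 gene. A promoter or gene-body peak joined the chain of 5 of the 16 when all peaks were used. The matching shares among promoter and gene-body peaks are not given here, so these counts describe the 249 peaks alone. Grouped peaks had a median fold of 6.44 and single ones 5.90.

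The Klrb1b group was the strongest. Klrb1b encodes an inhibitory lectin-like receptor from the NK gene cluster, and 3 peaks spanned 3.21 kb on chromosome 6 from 128836417 to 128839624. Their folds were 19.3 (12.5 to 28.6, 23 tags) at 10.1 kb upstream of the start, 6.75 (3.22 to 13, 7 tags) at 12.3 kb and 4.61 (2.36 to 8.33, 9 tags) at 12.9 kb. The first thus stood clear of the last, and the interval of the middle one overlapped both. A gene-body peak of 5.68-fold (2.81 to 10.6), also assigned to Klrb1b and 16.7 kb upstream of its start, joined this chain when all peaks were used. The coding genes Klrb1b and BC035044 flanked the group, the latter 8.42 kb from its far end, and Klrb1c, the gene of the NK1.1 antigen, lay 47.8 kb from the first peak.

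The second group of 3 lay on chromosome 17 from 84116371 to 84119655, 37.7 to 40.7 kb from the start of the non-coding gene 4933433H22Rik. Its folds were 7.59, 9.28 and 5.06, all with the background at its floor. The nearest coding gene was Zfp36l2, an mRNA decay factor of the Zfp36 family, 64.3 kb from the closest peak. Zfp36l2 had a separate downstream peak of 7.10-fold (3.52 to 13.2), 0.114 kb from its gene body, and a promoter peak of 5.06-fold.

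Of the 13 pairs, that of Kif2c was the strongest, with 12.6-fold and 7.24-fold 279 bp apart. The pair of Rdm1, a DNA repair gene, had 8.38-fold and 8.29-fold. A pair near AW112010 had 7.83-fold 2.27 kb upstream and 5.47-fold 5.42 kb downstream of its start. The pair of Ccdc9, with 6.75-fold and 5.63-fold, lay 11.4 and 12.5 kb from Bbc3, the pro-apoptotic PUMA gene. The pair of Fcgr3 and Fcgr4, genes of IgG Fc receptors, had 5.08-fold and 4.49-fold, and both peaks lay within 1000 bp of a tRNA gene, while 4 other groups also held such a peak. The pair assigned to Dad1 lay 1.16 and 2.91 kb from Trac, the constant segment of the T cell receptor alpha chain.

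**Figure D4:**
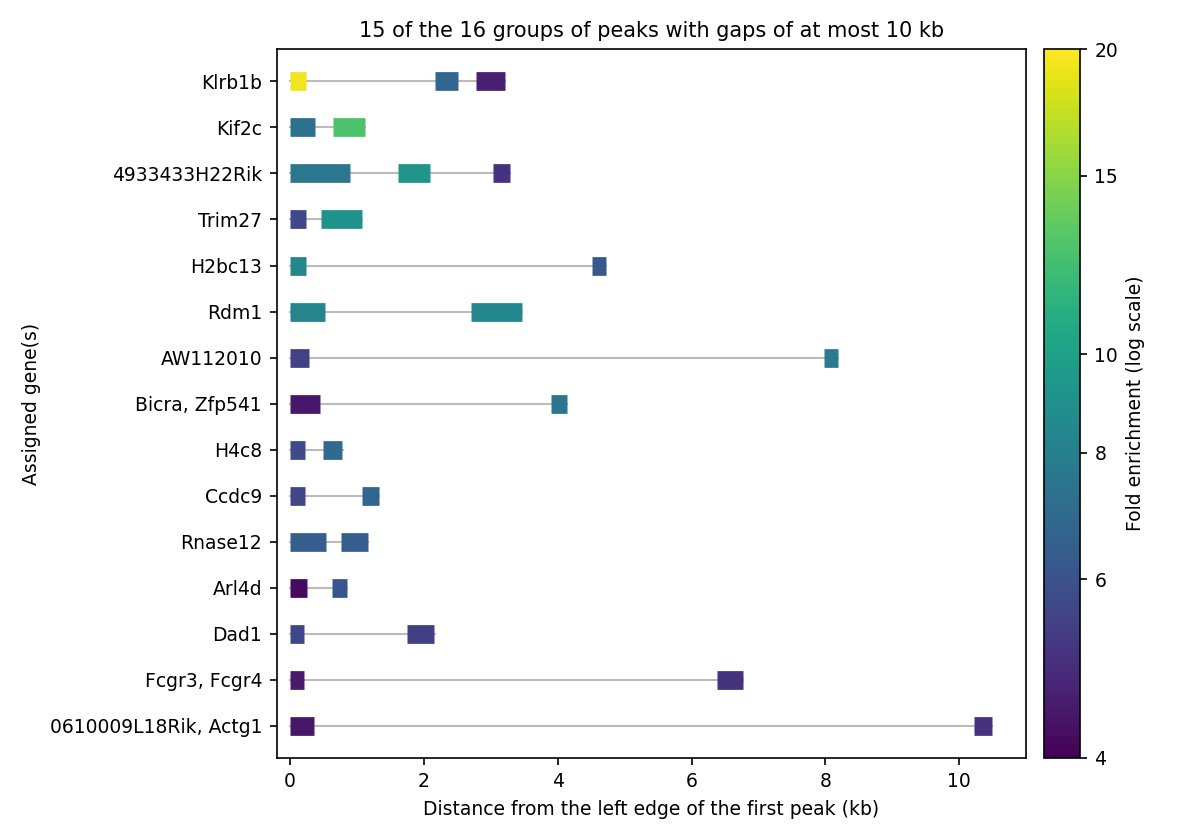
Each row is 1 group, with 15 of the 16 drawn, named by its assigned genes, with every peak drawn to scale as a bar at its distance from the left edge of the first peak (kb) and coloured by fold enrichment (log scale). The Klrb1b row holds the highest fold, 19.3, and the longest row drawn, that of 0610009L18Rik and Actg1, spans 10.5 kb.

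The assigned genes were then compared with 13 gene lists of 339 genes, 4 of which hold genes of other lineages (T cell, B cell, myeloid, and neuronal and liver). Of the 249 peaks, 29 (11.6%, 95% exact interval 7.94 to 16.3) were assigned to 27 listed genes, where 6.55% of the list were. The share was 4.24% among promoter peaks (39 of 919) and 10.2% among gene-body peaks (24 of 236). Peaks assigned to listed genes were not stronger, with a median of 5.80-fold against 5.90 for the other 220, and 2 of them reached 10-fold. Their median distance was 12.3 kb, against 12.9 kb. A promoter peak was present as well at 6 of the 27 genes, where the assigned gene of 14.9% of all 249 peaks had one. Counts of genes per list follow beside the counts with any peak. The matching share over all genes is not given here, so these counts do not show that a list was favoured.

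NK receptors and adaptors, the longest list, had 5 of 42 genes and 7 peaks. Of the 42, 1 had a promoter peak and 8 had a peak of any class. As a share of the list, 5 of 42 was below cytokines and chemokines (4 of 21), cytotoxic genes (3 of 21) and migration and adhesion genes (3 of 24). Besides Klrb1b they were Klri2 at 7.83-fold (4.67 to 12.4, 16 tags) and 7.05 kb upstream, Klrd1, the CD94 gene, at 5.63-fold (2.58 to 11.3) and 4.45 kb upstream, Fcgr3, the CD16 gene, at 5.08-fold and 13.1 kb downstream, and Cd69, an early activation marker, at 4.97-fold (2.18 to 10.5, 5 tags) and 9.22 kb upstream. The Klrd1 peak lay 0.761 kb from the RefSeq gene Klrd1 and 1.3 kb from Klre1. The receptor genes named here are close gene copies in part, and reads shared between copies could not be followed here. Within 50 kb of a peak, with whatever gene it was assigned to, lay 15 of the 42 genes. Among the further ones were Cd96, an inhibitory receptor gene 12.9 kb from a peak of 8.38-fold assigned to Plcxd2, Klrg1, 19.8 kb from a peak of 8.85-fold assigned to M6pr, and Cd247, the CD3 zeta gene, 21.5 kb from a peak of 5.06-fold assigned to Creg1.

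Among 21 cytokine and chemokine genes, 4 had such a peak, 1 had a promoter peak and 5 had a peak of any class. Xcl1, a chemokine that draws dendritic cells, had 7.59-fold (3.76 to 14.1), Ifng, the interferon-gamma gene, 6.37-fold (3.35 to 11.2), and Il10 and Ccl3 4.83-fold each (2.11 to 10.2, 5 tags). The Il10 peak lay 0.744 kb from the end of the gene body nearest to it. Cytotoxic genes had 3 of 21, and 3 had a peak of any class. They were Fasl, which encodes a death ligand, at 7.23-fold (4.25 to 11.6), and the granzyme genes Gzmb at 6.44-fold and Gzma at 4.71-fold. The Gzma peak, 4.04 kb upstream, overlapped the neighbouring gene Cdc20b in RefSeq. All of these intervals overlapped.

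Of 36 NK transcription factor genes, 9 had a peak of any class and 3 had one of the 249, each more than 50 kb from the start. These were Irf2 at 5.80-fold (15 tags) 52.2 kb downstream, Nfil3, a factor needed for NK cell development, at 5.06-fold 76.0 kb upstream, and Bach2, a bZIP repressor, at 5.06-fold 89.3 kb upstream. The latter pair rested on 5 tags each, and the coding gene nearest to the Nfil3 peak was Ror2. Of 34 AP-1 and bZIP genes, Fos had a peak of 7.33-fold (3.75 to 13.3) 26.4 kb upstream and Fosb a peak of 4.72-fold (2.61 to 7.97) 9.80 kb upstream. A promoter peak was present at 8 of the 34 and a peak of any class at 10. The Fosb background, at 1.76 tags, was among the highest of the 249.

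Signalling genes had scattered peaks. Il2rb, a chain of the interleukin-2 and interleukin-15 receptors, had 7.33-fold (3.75 to 13.3), and Pim1, a kinase gene induced by cytokines, 4.02-fold (1.68 to 9.05, 4 tags). They were 2 of 36 genes of their list, of which 5 had a peak of any class. Immediate-early genes had 3 of 38 here, 11 with a promoter peak and 13 with a peak of any class. Zfp36 had 10.3-fold 2.37 kb upstream beside a promoter peak of 4.14-fold (2.05 to 7.72), whose interval it overlapped. At Egr1 the order was the other way, with 5.06-fold (2.21 to 10.7) 3.53 kb upstream beside a promoter peak of 14.1-fold (8.90 to 21.5), and these intervals overlapped as well.

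Migration and adhesion genes had 3 of 24, none of the 24 had a promoter peak and 4 had a peak of any class. Cd44, a hyaluronan receptor gene, had 8.43-fold (4.31 to 15.3) 46.7 kb upstream, and Itgb1, an integrin subunit gene, 5.06-fold 39.7 kb upstream. No apoptosis regulator was assigned, although Mcl1, a survival gene of NK cells, was the nearest coding gene, at 5.71 kb, to a peak of 8.05-fold (4.12 to 14.6) assigned to Adamtsl4.

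The lists of other lineages held 2 genes with an assigned peak. T cell markers had 1 of 20, Lef1 at 6.44-fold 53.1 kb upstream, and myeloid markers 1 of 12, Cebpe at 4.97-fold 3.49 kb upstream. B cell markers (12 genes) and neuronal and liver genes (18 genes) had 0. A peak of any class was assigned to 2 T cell markers, 1 myeloid marker, 0 B cell markers and 1 neuronal or liver gene. The 1 of 12 equals the share of NK transcription factor genes, 3 of 36. Within 50 kb of a peak, whatever its assigned gene, lay 3 of the 20 T cell markers (Trac, Trbc1 and Trbc2, the first beside the pair assigned to Dad1 and the others beside the 13.9-fold peak assigned to Prss2) and 2 of the 12 myeloid markers (Cebpe and Cd14). Peaks alone do not show whether a gene is expressed, so the labelled cell type could not be checked against its markers.

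**Figure D5:**
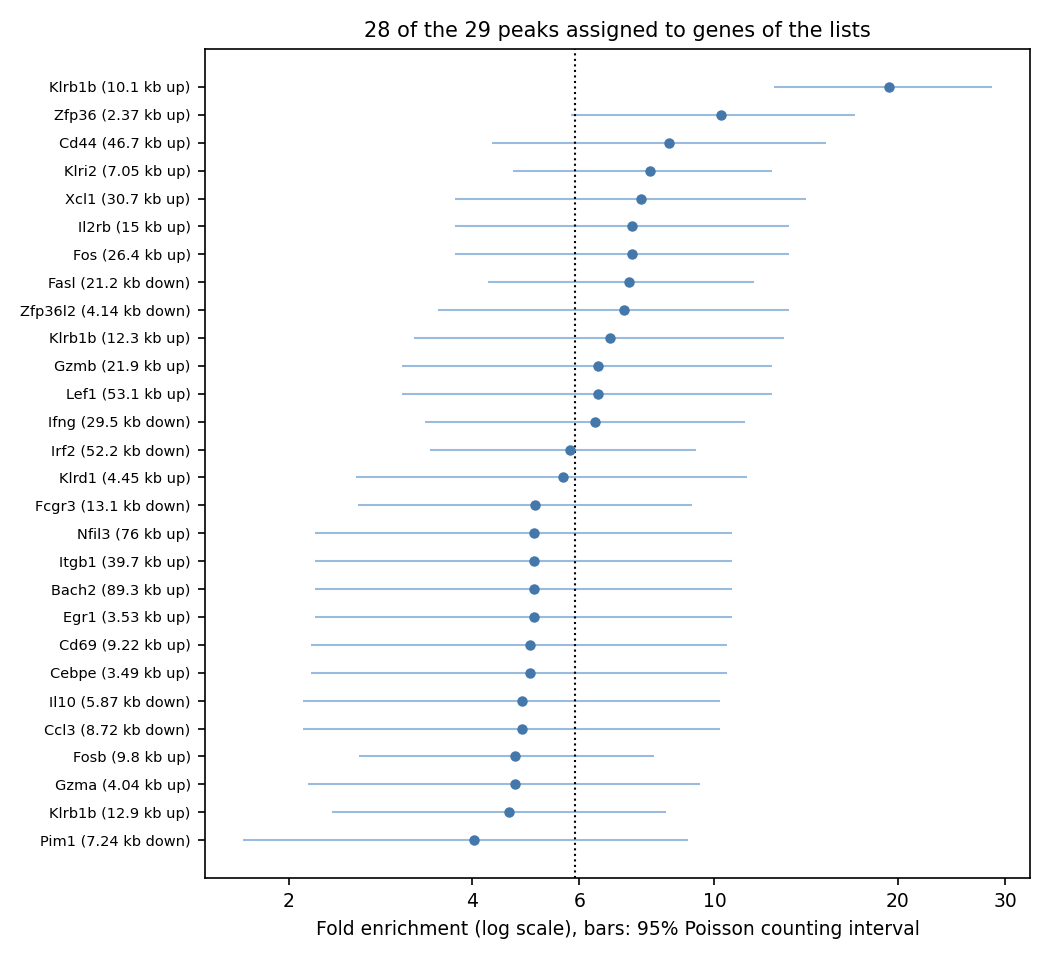
Points give the fold enrichment (x axis, log scale) of 28 of the 29 peaks assigned to genes of the lists, with exact 95% Poisson counting intervals as bars, and each row names the gene and the distance and side of the peak. The dotted line is the median of the 249 peaks, 5.90, and the interval of the first Klrb1b peak lies wholly to its right.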

How the data were processed

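Peaks of 1 Aiolos CUT&RUN library were taken from the deposited list. Per the submitters' processing notes, mm10 was the build and Bowtie2, MACS2, SAMtools and Picard were the tools, in no stated order. The q cutoff, duplicate filter, handling of reads with several matches and use of the library without antibody are steps not given in the sources used here. Per the file headers, the columns the authors deposited for each peak are a signal value, taken as the MACS2 fold ratio of pileup plus 1 to background plus 1, the -log10 p and -log10 q, a score, an annotation, a gene and a distance. These are the authors' own values.

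Tags and background per peak were solved from fold and p (largest error in -log10 p 1.75e-05), a step tested on simulated data. Total library depth was not computed, and with a median of 7 tags a counting interval is wide. Fold intervals are exact Poisson on the tags with the background fixed. All 249 gene identifiers matched the RefSeq table (GRCm38.p6), which gave gene bodies, and its promoter windows gave the sequences. Analyses used Python 3.11.15, pandas 2.3.3 and scipy 1.17.1. No test across peaks was made, since peaks are not replicates. The text names the 15 strongest of these peaks, up to 6 peaks per list, groups of 3, the extremes of distance and the 3 strongest of each class. Other names, the pairs and the tRNA genes were picked with their values in view, and the classes and lists with earlier results of these data known. Some genes that this rule names are left out of the text and figures and are not reported here.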

Additional observations from a re-analysis of the deposited data

How the results depend on the processing

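The alternatives for tRNA genes were chosen after seeing the data; the others were planned. These peaks made up 17.7% of the list, but 15.4% of its upper part by -log10 q, from its median on, and 15% of peaks above the median fold. Their median distance above the median fold was 10.9 kb, against 12.9 kb. By construction, the 2 stricter sets had larger shares past 10-fold (15.2% and 16.5%), fewer groups (5 and 4) and fewer listed genes (13 and 9). Distal intergenic peaks alone were 13.8% of the list at a median of 19.3 kb. The log2 difference from promoter peaks was -0.36 with pileup and -0.34 with -log10 q in place of fold, and -0.16 with fold. It was -0.077 in the upper part by -log10 q and -0.042 above the median fold, and stayed negative under all 6 alternatives. A limit of 8-fold was passed by 20.5% and of 12-fold by 2.81%. Within 50000 bp lay 47 listed genes in place of 27 assigned. The shorter motif was in 4 windows in place of 2. The share near tRNA genes was 2.81% for overlap, 1.33% with the background at its floor, and 6.01% to 10.7% under the other 5 alternatives. Chaining gaps of 5000 to 50000 bp gave 13 to 22 groups. Distal intergenic peaks alone gave 12 groups, and merging peaks within 500 bp of each other left 11. Depth limits single peaks, since 197 of 249 rested on 10 tags or fewer. No paired analysis was possible because neither group has a second library.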
